A study of Curcuma longa with 2 samples.

Results

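miR535 in nanoparticles from turmeric (Curcuma longa) root is described here through 7 distinct sequences, taken from 10 lines of the deposited table. They are all sequences listed under a miR535 name, whatever the species prefix, and the predicted entry PC-3p-41445_18, which is listed on miR535 hairpins. The whole table, over the entries used here, holds 186 distinct sequences, of which 167 have reads, and all 7 of the miR535 entries have reads. The 2 samples, Turmeric ELN 1 and 2, are called library 1 and library 2. They form 1 group with no control, no treatment and no time or genotype contrast, and the labels do not say whether they are separate preparations or repeats of 1, so their spread may be no more than technical. The table does not separate RNA inside the particles from RNA carried along with them. The listed reads came to 72196 in library 2 and 96386 in library 1, which sum over miRNA entries alone and do not give the sequencing depth. The members were chosen with earlier results on these reads known, so levels and differences between the libraries are a description and carry no test.

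A plant miRNA is cut from the stem of a hairpin transcript by the Dicer enzyme DCL1, and the strand that stays is held by an Argonaute protein, in most cases AGO1, which prefers a first U. Plant miRNAs pair with their targets along most of their length and often lead to cleavage near the middle of the pairing. miR535 is found from mosses to flowering plants and is absent from Arabidopsis. Its sequence resembles that of miR156 and miR529, and all of them target genes of the SPL transcription factors, which control the change of growth phase and inflorescence form. In rice, miR535 has been shown to lower SPL transcripts.

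The sequences that carry the results are the registered rice form and the forms that differ from it, with T for U as deposited. In the first line the capitals mark the seed, bases 2 to 8 from the 5′ end. In the other 5p lines they mark the changed or added base, and in the 3p line again bases 2 to 8.
Registered form: tGACAACGagagagagcacgc
T1C and C21T form: CgacaacgagagagagcacgT
A9C form: tgacaacgCgagagagcacgc
G2N form: tNacaacgagagagagcacgc
C21A form: tgacaacgagagagagcacgA
Form longer by 1 base: tgacaacgagagagagcacgcT
PC-3p-41445_18: gTGCTGTTtctcgttgtcaac
Positions count from 1 at the 5′ end, with the base of the registered form first and N for a base that was not called. Of the 7 entries, 5 share the seed GACAACG. The A9C, T1C, C21T and C21A changes lie outside the seed, and the uncalled base lies inside it.

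The family as a whole held 9.81% of the listed reads in library 2 and 9.71% in library 1, or 9.76% ± 0.071 (SD, n = 2). These shares rest on 7086 reads in library 2 and 9363 in library 1. The exact Clopper-Pearson 95% intervals, 9.60% to 10.03% in library 2 and 9.53% to 9.90% in library 1, overlap. These intervals reflect counting error alone, because PCR copies could not be told from separate molecules.

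The registered form made up most of the family. It had 6084 reads in library 2 and 8545 in library 1, which is 85.9% and 91.3% of the miR535 reads. Its share of all listed reads was 8.43% in library 2, with an interval of 8.23% to 8.63%, and 8.87% in library 1, with an interval of 8.69% to 9.05%. The registered form was thus the lower in library 2, although the family as a whole was not.

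The form with T1C and C21T had 499 reads in library 2 and 737 in library 1, or 0.69% and 0.76% of the listed reads. It was the second most abundant entry in both libraries, and its intervals, 0.63% to 0.75% in library 2 and 0.71% to 0.82% in library 1, overlap. It begins with C, a first base that AGO5 prefers in Arabidopsis. Through it, 7.04% of the miR535 reads in library 2 and 7.87% in library 1 started with C, against 10.2% and 8.94% of the reads outside the family. A first T, the U of the RNA, was held by 92.8% of the miR535 reads in library 2 and 91.9% in library 1, against 74.2% and 76.2% outside the family.

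The A9C form had 452 reads in library 2 and 24 in library 1, or 0.63% and 0.025% of the listed reads. It was the only one of the 7 entries with reads in both libraries whose intervals did not overlap and whose share differed by 2-fold or more. The remaining entries were rare. The G2N form had 17 reads in library 2 and 28 in library 1, PC-3p-41445_18 had 14 and 19, and the C21A form had 14 and 10. In library 2 the form longer by 1 base had 6 reads, while library 1 lists it at 0, and no upper limit is given for it because the smallest value above 0 in the table, 2.5 reads, leaves room for a minimum. Each of these 4 entries held at most 0.029% of the listed reads in either library.

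**Figure D1:**
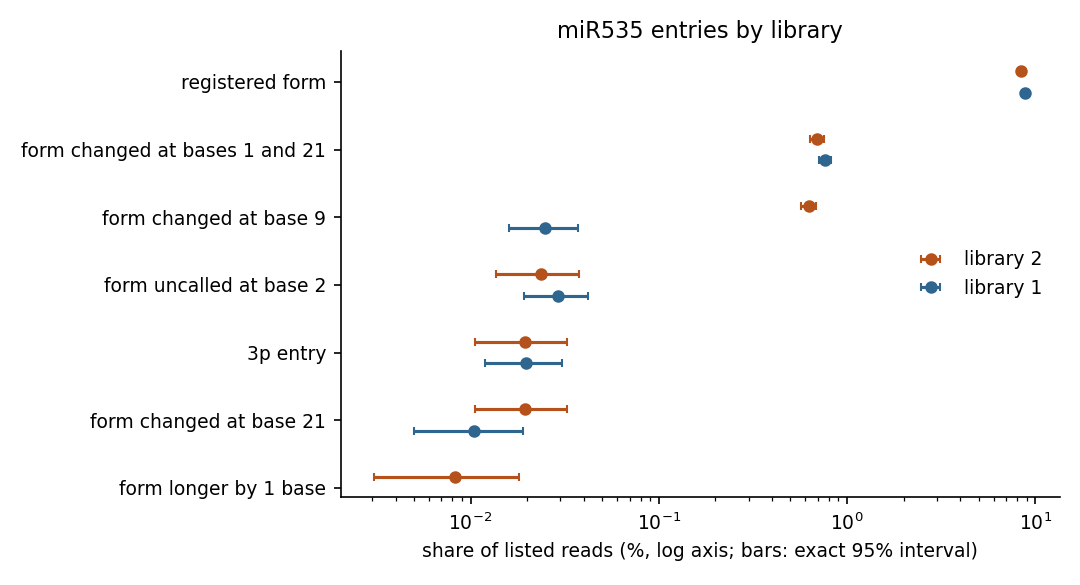
Share of listed reads of each of the 7 miR535 entries (x axis, percent, log axis) in library 2 (upper point) and library 1 (lower point), with exact 95% intervals. The points of the form changed at base 9 stand at 0.63% and 0.025%, while those of the other entries lie close together; the form longer by 1 base has no point for library 1, where it is listed at 0.

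The shares of the registered and the A9C form added up to nearly the same value in both libraries. Together they held 9.05% of the listed reads in library 2 and 8.89% in library 1, and the intervals, 8.84% to 9.26% and 8.71% to 9.07%, overlap. Without the A9C form, the family held 9.19% in library 2 and 9.69% in library 1. Of the reads of these 2 forms, 6.92% carried A9C in library 2, with an interval of 6.31% to 7.56%, and 0.28% in library 1, with an interval of 0.18% to 0.42%.

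The same change was present on the T1C and C21T form. A predicted entry outside the naming rule, PC-5p-22918_57, looked up after its values were seen, has the letters of that form with A9C as the 1 difference, shown in capitals.
PC-5p-22918_57: cgacaacgCgagagagcacgt
Library 2 had 57 reads of it, and library 1 lists it at 0. That is 10.3% of its reads and those of the unchanged form in library 2, with an interval of 7.86% to 13.1%. Both 5p sequences found in a listed hairpin, the registered and the T1C and C21T form, therefore had a base 9 counterpart in library 2, at 74.3 reads per 1000 of the registered form and 114 per 1000 of the T1C and C21T form. In library 1 the counterparts stood at 2.81 per 1000 and at a listed 0. That 0 stands beside 737 reads of the T1C and C21T form, and the smallest listed value above 0 is 2.5 reads. Whether the 2 rates differed in library 1 can therefore not be told.

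**Figure D2:**
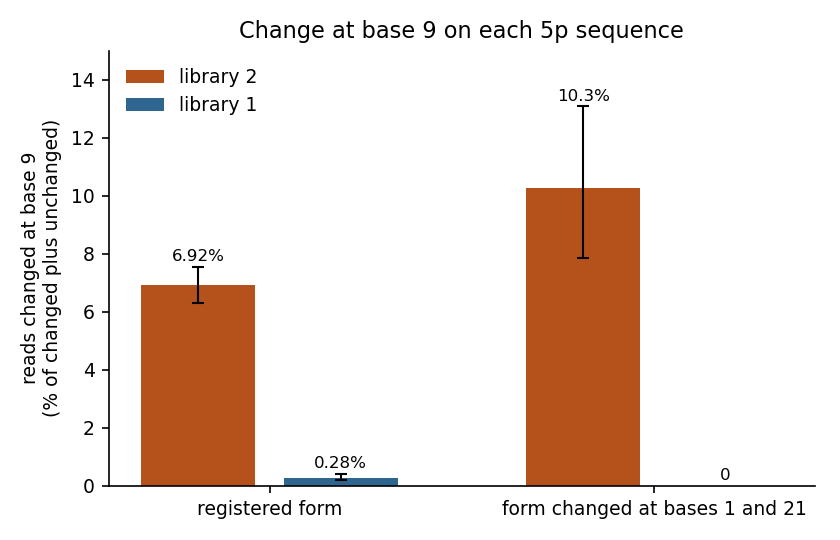
Reads with A9C as a percent of changed plus unchanged reads (y axis, from 0), for the registered form (left) and for the form changed at bases 1 and 21 (right), in library 2 and library 1, with exact 95% intervals for values above 0. Library 2 stands at 6.92% and 10.3%, against 0.28% and a listed 0 in library 1. No upper limit is given for the listed 0.

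Of all listed sequences that reach 10 reads over both libraries, 15 of 153, or 9.80%, differed by 2-fold or more in share between the libraries, 4.58% being higher in library 2 and 5.23% lower. The 15 include 5 sequences listed at 0 in 1 library, which have no ratio. Those higher in library 2 include the A9C form itself and PC-5p-22918_57. Of the miR535 entries, 6 reach 10 reads, and 1 of them, the A9C form, differed by 2-fold or more. Its share was 25.1-fold higher in library 2, a log2 ratio of 4.65. With 1 of 6, the count of members says nothing about the family beyond the background, and the form was picked out for this ratio. The median log2 ratio over the 6 entries was -0.048, against 0.0019 over the 148 of the 153 sequences that were above 0 in both libraries. The other 5 entries ranged from -0.30 for the G2N form to 0.90 for the C21A form. Their intervals overlapped between libraries, except for the registered form, whose shares stood 1.05-fold apart, higher in library 1.

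Outside the family, 67 sequences reached 100 reads over both libraries together and were above 0 in each. The one farthest from equal shares was a miR2592 entry, mtr-MIR2592bj-p5_2ss12TC19AT, with a log2 ratio of -0.89. At lower counts, the entry gma-MIR5368-p3_1ss11CA reached -2.13.

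**Figure D3:**
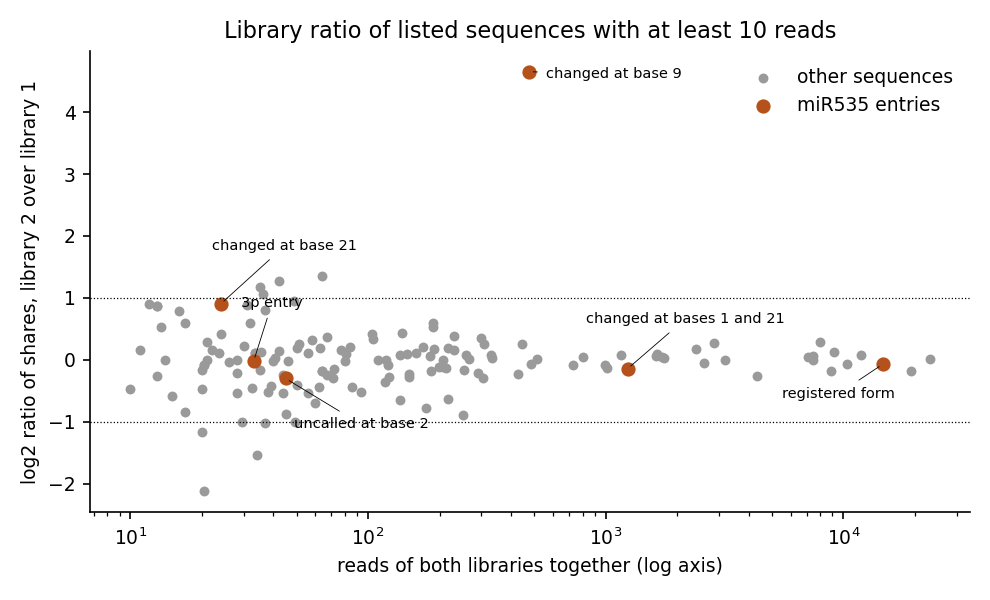
Log2 ratio of shares, library 2 over library 1 (y axis), against the reads of both libraries together (x axis, log axis), for the 148 sequences above 0 in both libraries that reach 10 reads in sum. The dotted lines mark 2-fold; the form changed at base 9 lies at 4.65, and the other 5 miR535 entries lie between the lines.

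A closer comparison is with other sequences that differ at 1 base. The table holds 24 pairs of equal length, 1 base apart, with at least 10 reads each, and 22 of them had reads of both sequences in both libraries. In the remaining pairs the rarer sequence was listed at 0 in library 1, so no ratio is given. These were PC-5p-22918_57, with 57 reads in library 2, and a miR6478 sequence with C6T, ptc-miR6478_R+2_2ss6CT21GA, with 10. Among the 22 pairs, apart from the A9C pair, reads of the rarer sequence per read of the more abundant one changed by a median of 0.20 on the log2 scale, in either direction. The largest of these changes was 1.18. The smallest was 0, for a miR396 pair whose sequences have equal listed reads, 25.5 each in library 2 and 38.5 each in library 1. These equal values give the 0 by construction. The A9C pair changed by 4.73. The next largest changes were 1.18 for a C6T pair of miR6478, an entry proposed to be a tRNA fragment, and -1.01 for a C21A pair of miR165/miR166, which targets class III homeodomain-leucine zipper genes. These 2 pairs rest on few reads, with 7 reads of the rarer miR6478 sequence in library 2 and 5 in library 1, and 8 and 21.5 of the rarer miR166 sequence. Within miR535, the C21A pair changed by 0.98 and the G2N pair by -0.23. Written from the more abundant to the rarer sequence, the A9C pair was the 1 pair with an A-to-C change among the 22. Pairs with a C-to-A change in this direction ran from -1.01 for miR165/miR166 to 0.98 for the miR535 C21A pair. The miR167 pair among them, which changed by 0.12, is an A-to-C change when the registered base is written first.

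**Figure D4:**
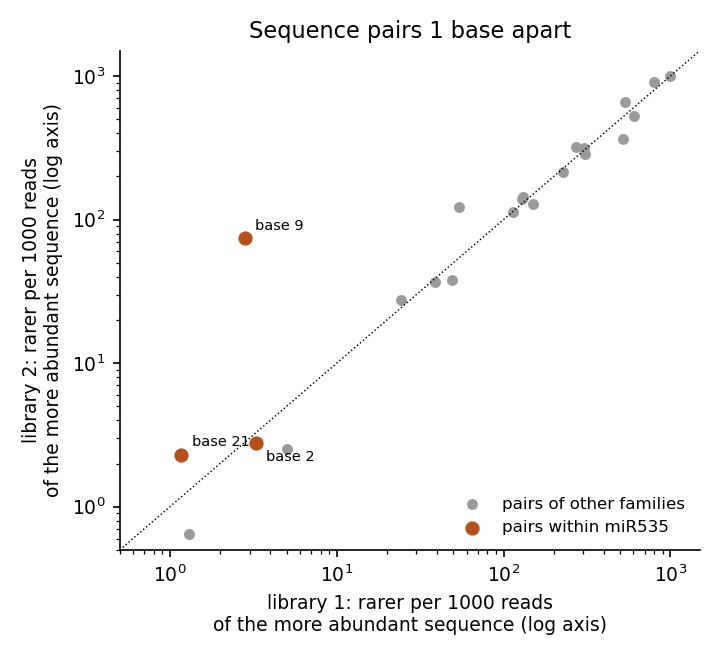
Reads of the rarer sequence per 1000 reads of the more abundant one in library 2 (y axis) and library 1 (x axis), both log axes, for 22 pairs of sequences that differ at 1 base. The dotted line marks equal values; the miR535 pair at base 9 lies at 74.3 and 2.81 per 1000, and the pairs at bases 2 and 21 lie closer to the line, at 2.79 and 3.28 and at 2.30 and 1.17 per 1000. A miR396 pair with equal listed reads of both sequences lies at 1000 on both axes.

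The hairpins show which forms have a listed genomic source. For the miR535 entries the table gives 7 distinct turmeric stretches, 5 of them with both arms. They are printed for the letters at bases 1, 9 and 21, with the 5p sequence and the stretch that matches PC-3p-41445_18 best in capitals. The coordinates are those of the authors' file, on contigs whose assembly is not named in the sources used here, and no gene annotation for these contigs was used here.
Hairpin 1, WXZB01007556.1:82132469-82132620, plus strand: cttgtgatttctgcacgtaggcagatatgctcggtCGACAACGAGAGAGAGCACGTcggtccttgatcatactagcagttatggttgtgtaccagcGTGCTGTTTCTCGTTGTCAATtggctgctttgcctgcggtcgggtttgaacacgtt
Hairpin 2, WXZB01075556.1:17228904-17229011, plus strand: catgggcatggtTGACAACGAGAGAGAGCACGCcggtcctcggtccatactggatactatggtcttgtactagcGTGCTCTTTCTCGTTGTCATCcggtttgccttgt
Hairpin 3, WXZB01408281.1:86-187, plus strand: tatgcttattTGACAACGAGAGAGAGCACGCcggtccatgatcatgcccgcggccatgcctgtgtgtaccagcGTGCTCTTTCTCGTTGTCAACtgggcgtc
Hairpin 4, WXZB01075247.1:2124-2216, minus strand: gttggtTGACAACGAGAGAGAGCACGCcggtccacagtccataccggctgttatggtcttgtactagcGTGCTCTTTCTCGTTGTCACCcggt
Hairpin 5, WXZB01306906.1:477-566, minus strand: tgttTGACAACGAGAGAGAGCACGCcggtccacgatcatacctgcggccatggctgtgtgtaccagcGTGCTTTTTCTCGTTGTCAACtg
The other 2 stretches, of 66 and 30 bases, hold the 5p sequence near their right end and no 3p arm.

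Of the 7 stretches, 6 hold the letters of the registered form, and hairpin 1 holds those of the T1C and C21T form. That second form thus matches a listed turmeric locus, and T1C and C21T are differences from the rice entry. None of the 216 listed turmeric hairpin stretches holds the letters of the A9C or C21A form, of the form longer by 1 base or of PC-3p-41445_18. The G2N form, whose uncalled base can match no letter, matches 6 stretches at its 20 called letters. The A9C form is placed on hairpin 5, which has A at base 9, as do the other 6. The 8 letters around the changed base occur in no listed hairpin. In the 5 hairpins with both arms, base 9 is paired with a T of the opposite arm in the authors' fold. The 4 fully called entries with no such source together held 6.86% of the miR535 reads in library 2 and 0.57% in library 1.

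The reads of the registered form are divided evenly over hairpins 2 and 3 in the table, at 3042 per hairpin in library 2 and 4272.5 in library 1, although 4 further stretches hold the same letters. The shares of single loci can therefore not be read from the table. Only the T1C and C21T form can be tied to 1 listed hairpin by its letters. The registered form had 12.2 reads for each read of it in library 2 and 11.6 in library 1.

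In the authors' folds, all 21 bases of the registered form were paired in hairpins 2 to 5, and 18 of the 21 bases of the form in hairpin 1. Free energies of these 5 hairpins, as the authors give them, ran from -66.3 kcal/mol for hairpin 1, the longest at 152 bases, to -51.3 for hairpin 5, the shortest at 90. Pairwise identity over aligned bases was highest between hairpins 3 and 5 at 93.3% and between hairpins 2 and 4 at 90.4%, and lowest between hairpins 2 and 3 at 73.6%.

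The 3p arm was scarcely represented. PC-3p-41445_18, the 1 member from this arm, held 0.20% of the miR535 reads in both libraries, and the intervals ran from 0.11% to 0.33% in library 2 and from 0.12% to 0.32% in library 1. The 5p members had 505 reads for each read of PC-3p-41445_18 in library 2 and 492 in library 1. This ratio leaves out a second 3p entry, given below, which has more reads. The entry is listed on hairpins 1 and 5 and matches neither exactly. Written with the hairpin base first, it differs from hairpin 1 at T21C and from hairpin 5 at T6G. It differs from hairpin 3 at C6G alone. A second predicted 3p entry outside the naming rule, PC-3p-32917_31, is listed on hairpin 4. Its reads numbered 17 in library 2 and 27 in library 1. It differs from hairpin 4 at T9C, shown in capitals.
PC-3p-32917_31: gtgctcttCctcgttgtcacc
With it, the 3p reads came to 31 in library 2 and 46 in library 1.

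The relation to miR156 is seen when the sequences are aligned. The 2 most abundant miR156/miR157 sequences are printed with capitals at the bases inside the alignment that differ from the registered miR535 form or are missing from it.
Registered miR535: tgacaacgagagagagcacgc
sbi-miR156a_L+1: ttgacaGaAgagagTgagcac
ppe-miR156c: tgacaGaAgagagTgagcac
Each matched miR535 in 17 of 20 aligned columns, with 1 gap and 2 mismatches. The gap shifts the frame inside the seed, so that ppe-miR156c shares 4 of the 7 seed positions with miR535 and sbi-miR156a_L+1, which has 1 more base at the 5′ end, shares 1. Of 159 sequences with reads and at least 1 aligned base outside the family, the 6 miR156/miR157 sequences of the 5p side took alignment ranks 2 to 7, with scores of 12.5 to 14.5. Rank 1 was PC-5p-22918_57, the base 9 counterpart described above, and the next registered family scored 8.5. vca-miR156b-5p, chosen after its alignment was seen, shares the longest run of identical letters with miR535 among these 6, at 9 bases.

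In amount, miR535 exceeded miR156/miR157 by 1.24-fold in library 2 and 1.28-fold in library 1, or 1.26 ± 0.030 (SD, n = 2). miR156/miR157 had 5733.5 reads in library 2 and 7324.5 in library 1, through 11 sequences. This order turns when the value of a single line is used for sequences on 2 lines: miR535 then had 0.79 reads per miR156/miR157 read in both libraries. In the group of families tied to the SPL genes, no entry used here carries a miR529 name. miR172, which targets AP2-type genes and whose transcription SPL proteins promote in Arabidopsis, held 0.17% in library 2 and 0.19% in library 1, through 2 sequences. The leading one, osa-miR172a, had 88 reads in library 2 and 118 in library 1. The other, with T21C, had 32 and 61.

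By mean share, miR535 ranked 4 of 43 registered families, below miR159, which targets GAMYB-type genes, at 14.5% in library 2 and 14.4% in library 1. Below it came miR156/miR157 at 7.94% and 7.60%. Both gaps were wider than the spread between the libraries. That spread does not cover the choice of summing lines, and with the value of a single line miR156/miR157 exceeded miR535, as given above. The log2 ratio of the miR535 shares, library 2 over library 1, was 0.015. Among the 23 families with at least 100 reads in each library, the nearest ratios over these 2 libraries were 0.016 for miR2916, an entry proposed to be a ribosomal RNA fragment, 0.0086 for miR159 and 0.022 for miR528, which targets genes of copper proteins in grasses.

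Forms named with a substitution made up 13.9% of the miR535 reads in library 2 and 8.53% in library 1, a difference of 5.32 percentage points. Among the other 22 of these families the difference ran from -7.41 points for miR172 to 6.75 points for miR160, which targets auxin response factor genes. Both extremes rest on few reads, 120 in library 2 and 179 in library 1 for miR172, and 123 and 217 for miR160. Many of the 22, such as miR2916 at 100% and miR528 at 0 in both libraries, have a difference of 0 through their names alone. Without the A9C form, substitution forms held 7.48% of all miR535 reads in library 2 and 8.28% in library 1.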

How the data were processed

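Small RNA of 2 turmeric nanoparticle samples of 1 group was sequenced by the submitters from TruSeq small RNA libraries, per the labels' protocols. CASAVA 1.8.4 and cutadapt 1.10 are named in the submitters' processing notes, with no step assigned to either. The aligner, the miRBase release and the assembly were not given in the sources used here. Per the file headers, the deposited values are raw reads per line, an expected count since some are fractional, and a normalized signal. The authors' signal equals the raw value times a constant, 0.923 in library 2 and 0.508 in library 1. Hairpin folds, free energies and a free energy index score were computed by the authors, per the file headers, and the index score is not reported. Reads matched registered hairpins or, for predicted entries, genomic ones. Per the file headers, a listed sequence stands for a cluster of reads, and near-identical reads may be counted with it.

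Of 278 lines, 12 are empty and were not analysed here, and 2 value columns that match no sample of the series entered no step. Reads were summed over the lines of a sequence on the premise that lines carry equal parts. The sources used here do not state this. Of the miR535 entries, 3 stand on 2 lines each and the others on 1, and all 7 sums are whole (tolerance 1e-06). Sums in miR156/miR157 are not all whole, with 3263.83 reads of sbi-miR156a_L+1 in library 2. Shares, exact intervals and ratios were computed with Python 3.11.15 and scipy 1.17.1, and sequences were aligned with Biopython 1.88 (match 1, mismatch -1, gap opening -1.5, gap extension -1, free end gaps). The computations were checked on simulated data. No test was run, as there is 1 group. Named are all miR535 entries, the leading 2 sequences of miR156/miR157 and miR172, the neighbouring families by share, the 3 families nearest in library ratio and the 3 most changed pairs. Members and lists were chosen with earlier results of these data known.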

Additional observations from a re-analysis of the deposited data

How the results depend on the processing

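Of 39 alternatives, 27 moved a value by less than the spread between the libraries or, for the A9C ratio, stayed inside its exact interval of 16.7 to 39.7. This count includes the single-library and normalized-column settings, which could not move a value past these limits. It also includes 1 setting that repeats the main A9C ratio. Only the ratio to miR156/miR157 was checked for a turn of direction, and it turned in 1 alternative. With the value of a single line per sequence, miR535 held 8.03% of the listed reads, the registered form 79.8%, substitution forms 19.9% and the 3p arm 0.180% of miR535 reads. In that setting miR535 stood at 0.791 reads per miR156/miR157 read, against 1.26 with summed lines, since 86.3% of the miR535 reads in library 2 and 91.6% in library 1 lie on sequences with 2 lines, against 22.9% and 24.1% of the miR156/miR157 reads. The family held 10.3% with registered names only in the total, 11.99% without entries proposed to be rRNA or tRNA fragments, and 9.47% without the A9C form, where the ratio to miR156/miR157 was 1.22. These follow from the changed totals. The 3p share was 0 without the predicted entry, by construction. After seeing the data it was also computed by the authors' arm label, at 0.352%, and with the 2 other predicted entries of miR535 hairpins, at 0.461%, and with them the A9C ratio was 28.3. Single libraries gave 9.71% to 9.81% for the family, 85.9% to 91.3% for the registered form, 8.53% to 13.9% for substitution forms, 0.198% to 0.203% for the 3p arm and 1.24 to 1.28 for the ratio to miR156/miR157. With 2 libraries, each lies within 1 SD by construction. The normalized column changes no share. Counts under 30, as for the A9C form in library 1 and for the rarer entries, set wide intervals. No paired analysis was possible because the labels give a single group.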

Other observations

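The table gives different spans for hairpin stretches of identical letters. Hairpin 5 is listed at WXZB01306906.1:477-566 for the A9C form and at WXZB01306906.1:414-503 for PC-3p-41445_18, 63 bases apart, both on the minus strand. Hairpin 4 is listed at WXZB01075247.1:2124-2216 for the G2N form and at WXZB01075247.1:2000-2092 for PC-3p-32917_31, 124 bases apart and also on the minus strand. The spans of minus-strand stretches can therefore not be taken as positions without the contigs.

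The C21A form is named as a 5p sequence and labelled as the 3′ end of its stretches, which are the 2 that lack a 3p arm.

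Outside miR535 hairpins, 6 sequences with reads are named with a change at base 9, and none of them had a higher share in library 2. They include ppe-MIR159-p5_1ss9TA, with 44 reads in library 2 and 92 in library 1, and mtr-MIR2603-p5_2ss9AC17AC, which has an A-to-C change at that base, with 13 and 32. The names of these 6 count changes against registered entries of other species. None of the 6 stands in a listed pair that differs at base 9, so they give no changed form beside an unchanged one. The G2N form was the 1 sequence of the table with an uncalled base.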
